A study of Mus musculus with 13 samples.

Results

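The MS4A genes described here are Ms4a4a, Ms4a4b, Ms4a4c, Ms4a6b, Ms4a6c, Ms4a6d and Ms4a7. They were taken by symbol from the table of gene counts, which held all 7 among its 54513 gene symbols. The RNA came from sections of lung fixed in formalin and embedded in paraffin, taken on day 21 from male mice of the C57Bl/6 strain aged 7 to 8 weeks. Bleomycin breaks DNA, and its injury to the lung is followed by scarring, which makes it a common mouse model of fibrosis. The groups were 4 bleomycin libraries of batch 1 (replicates 5 to 8), 4 bleomycin libraries of batch 2 (replicates 1 to 4) and 5 saline libraries, all of batch 1. No group carried a genetic change, per the labels, and nothing there says that each library came from its own animal, so p-values measure the spread between these libraries only.

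MS4A proteins cross the cell membrane several times and sit at the surface or in inner membranes of immune cells, where they act beside receptors. The best known is CD20, the product of Ms4a1, on B cells. In macrophages, the phagocytes that clear debris and take part in lung repair, several members are turned on as monocytes mature. Ms4a4b and Ms4a6b are also known from T cells in mice, so the label of myeloid cells is not exact for every member. In whole-lung RNA, more cells of a type and more RNA per cell cannot be told apart.

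RefSeq places all 7 members in the gene cluster on chromosome 19, and a promoter window was at hand for 6 of them (all but Ms4a6d). Each window runs from 250 bases before the annotated start to 50 bases after it on build GRCm38.p6. Those of the close pairs (Ms4a6c with Ms4a6b, and Ms4a4c with Ms4a4b) and a window of Ms4a7 are shown, while that of Ms4a4a is not printed. Likeness of these windows does not measure how far the counts of the members can be separated. Capitals mark the longest run of bases that the windows of a pair have in common, and in Ms4a7, the member with the largest change, the 50 bases from the start onwards.
Ms4a6c, chr19:11469118-11469417, plus strand: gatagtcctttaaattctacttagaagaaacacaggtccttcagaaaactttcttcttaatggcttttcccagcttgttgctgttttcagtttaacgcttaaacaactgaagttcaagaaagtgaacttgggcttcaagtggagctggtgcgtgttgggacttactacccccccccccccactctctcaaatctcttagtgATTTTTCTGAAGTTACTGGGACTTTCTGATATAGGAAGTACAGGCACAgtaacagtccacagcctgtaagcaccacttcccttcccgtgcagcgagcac
Ms4a6b, chr19:11518309-11518608, plus strand: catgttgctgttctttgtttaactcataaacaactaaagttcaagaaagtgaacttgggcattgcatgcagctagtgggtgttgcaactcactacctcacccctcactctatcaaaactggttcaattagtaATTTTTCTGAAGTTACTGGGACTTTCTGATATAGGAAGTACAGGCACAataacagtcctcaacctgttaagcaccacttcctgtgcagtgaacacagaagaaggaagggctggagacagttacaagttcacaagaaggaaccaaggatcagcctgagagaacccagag
Ms4a4c, chr19:11407411-11407710, plus strand: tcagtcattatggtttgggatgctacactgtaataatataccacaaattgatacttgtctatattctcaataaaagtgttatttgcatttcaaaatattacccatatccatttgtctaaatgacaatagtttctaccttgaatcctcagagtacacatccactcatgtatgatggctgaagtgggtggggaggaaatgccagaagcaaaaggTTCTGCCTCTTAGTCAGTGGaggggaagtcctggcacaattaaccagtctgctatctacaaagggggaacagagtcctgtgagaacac
Ms4a4b, chr19:11443308-11443607, plus strand: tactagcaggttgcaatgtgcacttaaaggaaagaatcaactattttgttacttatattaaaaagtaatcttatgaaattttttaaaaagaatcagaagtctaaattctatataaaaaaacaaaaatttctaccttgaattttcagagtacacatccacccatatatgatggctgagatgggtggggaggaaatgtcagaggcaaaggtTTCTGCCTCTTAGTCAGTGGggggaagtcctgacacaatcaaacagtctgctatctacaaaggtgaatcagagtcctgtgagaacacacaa
Ms4a7, chr19:11336097-11336396, minus strand: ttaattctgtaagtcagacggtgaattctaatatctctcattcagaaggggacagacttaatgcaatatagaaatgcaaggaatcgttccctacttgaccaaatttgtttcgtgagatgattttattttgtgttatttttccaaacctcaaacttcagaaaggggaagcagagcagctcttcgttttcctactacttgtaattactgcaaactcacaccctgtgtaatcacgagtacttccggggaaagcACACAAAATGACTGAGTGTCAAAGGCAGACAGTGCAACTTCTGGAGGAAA

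The windows of Ms4a6c and Ms4a6b shared an unbroken run of 48 bases and were identical at 193 of 234 aligned positions (82.5%). Those of Ms4a4c and Ms4a4b shared 20 bases and matched at 159 of 178 positions (89.3%). Among the other pairs the longest shared run was 9 bases. The 48-base run holds the letters AGGAAGT, a core bound by PU.1 and other ETS factors. On either strand these letters occurred in 9.35% of all 32851 windows of that length and in 2 of the 7 windows of the members, since Ms4a7 has a pair of annotated starts. The AP-1 motif TGANTCA occurred in 7.81% of all windows and in those of Ms4a4b and Ms4a7 (its other start). The C/EBP motif TTGCNNAA (letters searched on either strand), the interferon-stimulated element and the MAF motif TGCTGAC were found in 0 of the 7, against 10.8%, 3.44% and 4.67% of all windows. A match is a description of letters only.

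Exact sharing between transcripts was measured separately. Of all 50-base stretches in annotated transcripts, 10.5% of those of Ms4a6c, 8.19% of Ms4a4c, 3.57% of Ms4a6b, 2.54% of Ms4a6d, 2.4% of Ms4a4b, 0.306% of Ms4a7 and 0% of Ms4a4a also occurred in another gene. How reads with several matches were counted is not given in the sources used here. Values of the Ms4a6b, Ms4a6c and Ms4a6d and of the Ms4a4b and Ms4a4c genes are therefore uncertain, by an amount that these shares do not give. On the opposite strand, BE692007 overlaps Ms4a6c over 1088 of its 2050 exon bases, and the strand setting of the counting is not given either.

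Total counts ran from 6337147 to 28885129 per library, and were at least 21727502 in batch 1 bleomycin, at most 12982422 in batch 2 bleomycin and spread from 9527580 to 26043735 in saline. The title of bleomycin replicate 8 reads control, against its treatment label and library name, which were followed here. Lung markers marked the tissue, with Sftpc, the surfactant protein gene of alveolar type 2 cells, at 979 to 2270 CPM (counts scaled to a common library total, with a normalization factor) in batch 1 bleomycin, 1600 to 4080 CPM in batch 2 bleomycin and 2930 to 4370 CPM in saline.

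The comparison of batch 1 bleomycin with saline asks how these genes differ in the lung 21 days after the drug. All 7 members rose (edgeR quasi-likelihood test, Benjamini-Hochberg adjusted p under 0.05 over all genes tested), where 17.5% of 20468 tested genes rose and 13.4% fell (30.9% in either direction). Their median log2 change was 1.63, against 0.03 over all tested genes. Every member was above the filter on low counts in all 5 saline libraries, so none entered the test through bleomycin alone. Without bleomycin replicate 8, all 7 again rose (median 1.54). With that library placed in saline as its title says, 0 of 7 passed in edgeR (4 at an unadjusted p under 0.05), 0 in DESeq2 and 1 in limma-voom, and Ms4a7 then had a log2 change of 1.69 (SE 0.73, adjusted p = 0.175). Replicate 8 had 29.5 CPM of Ms4a7, against 2.14 to 3.71 CPM in saline. Its 18 monocyte and interstitial macrophage genes, taken up below, summed to 2670 CPM, against 561 to 694 CPM in saline. Its level of Ms4a20, another MS4A gene, lay within saline (2.44 CPM, against 0.147 to 4.06 CPM). Which label is right was not tested.

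Ms4a7, a membrane protein of macrophages that in mouse brain marks those outside the parenchyma or derived from monocytes, changed most. It stood at 20.0, 26.3, 26.3 and 29.5 CPM in batch 1 bleomycin replicates 5 to 8, at 21.8, 15.8, 24.3 and 24.0 CPM in batch 2 bleomycin replicates 1 to 4, and at 3.28, 3.71, 3.28, 2.14 and 2.65 CPM in saline replicates 1 to 5. Every bleomycin library of either batch was above every saline library. The log2 change was 3.09 (SE 0.19, adjusted p = 1.34e-07), an 8.49-fold higher level in batch 1 bleomycin, and 2.98 (SE 0.19) without bleomycin replicate 8.

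Ms4a6d, a gene of macrophages whose protein is a partner of the complement receptor Vsig4 in mice, came next. Its levels were 6.67, 29.1, 18.5 and 21.5 CPM in batch 1 bleomycin, 19.3, 9.69, 9.3 and 9.96 CPM in batch 2 bleomycin and 2.64, 2.09, 2.55, 3.65 and 1.47 CPM in saline. Bleomycin libraries of either batch did not overlap saline. However, replicate 5 lay far below the other batch 1 bleomycin libraries and replicate 1 far above the other batch 2 bleomycin libraries. The log2 change was 2.91 (SE 0.38, adjusted p = 8.19e-05), 7.54-fold, and 2.82 (SE 0.41) without replicate 8.

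Ms4a4a, the mouse relative of the human gene for a macrophage surface protein found beside the fungal receptor dectin-1, varied widely within groups. It had 5.36, 11.4, 4.92 and 17.6 CPM in batch 1 bleomycin, 8.8, 3.88, 3.04 and 6.44 CPM in batch 2 bleomycin and 1.11, 2.32, 1.97, 3.33 and 2.94 CPM in saline. Batch 1 bleomycin did not overlap saline, while batch 2 bleomycin did, through replicate 3. The log2 change was 2.08 (SE 0.43, adjusted p = 0.00193) and 1.61 (SE 0.41, adjusted p = 0.00966) without replicate 8, its highest library.

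Ms4a6c and Ms4a6b, like Ms4a6d mouse relatives of human MS4A6A, a gene of macrophages and microglia, rose less. Ms4a6c had 17.8, 42.0, 31.1 and 35.5 CPM in batch 1 bleomycin, 23.6, 17.6, 16.0 and 17 CPM in batch 2 bleomycin and 8.06, 8.58, 13.8, 11.4 and 8.83 CPM in saline. Ms4a6b had 18.7, 32.7, 25.7 and 35.7 CPM in batch 1 bleomycin, 16.1, 19.5, 15.3 and 19.2 CPM in batch 2 bleomycin and 10.5, 10.9, 12.4, 11.5 and 11.5 CPM in saline. For both, all bleomycin libraries of either batch were above all saline libraries, and replicate 5 was the lowest of batch 1 bleomycin. The log2 change was 1.63 (SE 0.22, adjusted p = 7.04e-05) for Ms4a6c and 1.31 (SE 0.16, adjusted p = 3.23e-05) for Ms4a6b. Without replicate 8 these were 1.54 (SE 0.24) and 1.14 (SE 0.16). BE692007, on the strand opposite Ms4a6c, rose by 1.12 (SE 0.24, adjusted p = 0.00231), with 15.8 ± 4.93 CPM in batch 1 bleomycin and 7.21 ± 1.4 CPM in saline (SD, n = 4 and 5). Its lowest batch 1 bleomycin level, 8.75 CPM, was in replicate 6, where Ms4a6c was highest. Its part in the counts of Ms4a6c was not tested.

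The pair Ms4a4b and Ms4a4c changed least. Ms4a4b encodes a protein of mouse T cells that associates with the receptor GITR. It had 17.6, 11.1, 12.8 and 11.5 CPM in batch 1 bleomycin, 8.14, 7.96, 9.13 and 10.8 CPM in batch 2 bleomycin and 7.71, 4.17, 11.3, 3.27 and 6.1 CPM in saline. It is the member whose batch 1 bleomycin and saline libraries overlapped, since saline replicate 3 was above bleomycin replicate 6. The log2 change was 1.00 (SE 0.28, adjusted p = 0.0141). Ms4a4c, its close relative, had 4.7, 4.41, 3.58 and 4.67 CPM in batch 1 bleomycin, 2.16, 2.65, 3.8 and 4.25 CPM in batch 2 bleomycin and 1.75, 2.09, 2.59, 1.51 and 1.18 CPM in saline. It was the lowest member by CPM in each group, and its log2 change was 1.24 (SE 0.29, adjusted p = 0.00453). Without replicate 8 the changes were 1.03 (SE 0.31, adjusted p = 0.0252) for Ms4a4b and 1.17 (SE 0.33, adjusted p = 0.0157) for Ms4a4c. Batch 1 bleomycin was above all saline libraries for Ms4a4c, while batch 2 bleomycin overlapped saline for Ms4a4c and for Ms4a4b.

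**Figure D1:**
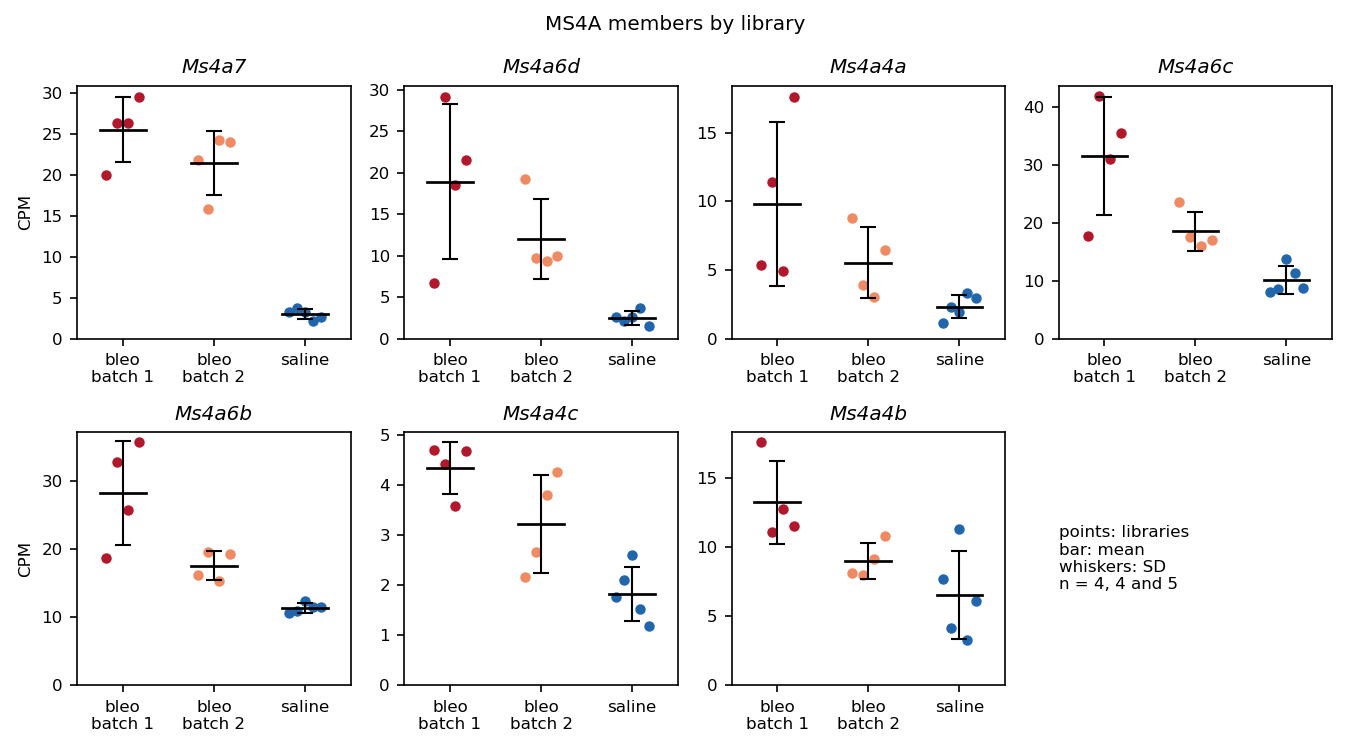
CPM of each member (y axis) in 4 batch 1 bleomycin, 4 batch 2 bleomycin and 5 saline libraries (points), with mean (bar) and SD (whiskers). Ms4a7 sat at 15.8 to 29.5 CPM in bleomycin libraries and at 2.14 to 3.71 CPM in saline, while the groups of Ms4a4b overlapped.

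Of the 7 members, 6 had every batch 1 bleomycin library above every saline library, as did 14% of tested genes. For batch 2 bleomycin set beside saline, 4 of 7 did so (Ms4a6b, Ms4a6c, Ms4a6d and Ms4a7), as did 15.3% of tested genes. Batch 2 bleomycin and saline differ in batch as well as treatment, and no test was made between them apart from the replicate block given at the end.

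Batch 2 bleomycin was lower than batch 1 bleomycin in the mean of all 7 members, with a median log2 difference of -0.66 against -0.03 over all tested genes. By edgeR 0 of 7 passed, where 1.68% of tested genes did, and 2 of 7 had an unadjusted p under 0.05, as did 2995 of the 20468 tested genes. These were Ms4a6b, at 17.5 ± 2.13 CPM in batch 2 and 28.2 ± 7.58 CPM in batch 1 (SD, n = 4 each; log2 difference -0.69, SE 0.18, adjusted p = 0.0621), and Ms4a6c, at 18.5 ± 3.42 CPM in batch 2 and 31.6 ± 10.2 CPM in batch 1 (-0.78, SE 0.24, adjusted p = 0.12). DESeq2 called 1 of 7, Ms4a6b (-0.67, adjusted p = 0.0225), and limma-voom 0. Without bleomycin replicate 5, the lowest batch 1 library for these genes, edgeR called 2, Ms4a6b (-0.84, adjusted p = 0.00883) and Ms4a6c (-0.97, adjusted p = 0.0196). Ms4a7 differed least between batches (-0.25, SE 0.18, adjusted p = 0.578). On simulated data edgeR recovered 37.3% of 2-fold differences between bleomycin batches, so 0 of 7 does not show equal levels.

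**Figure D2:**
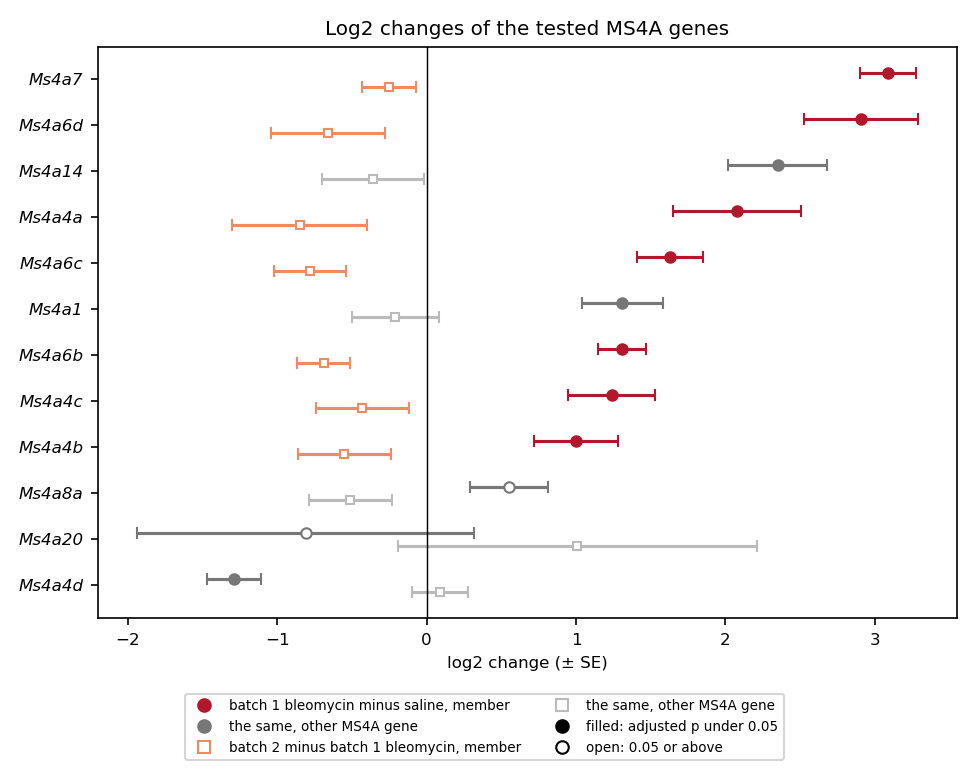
Log2 change with its SE (x axis) of the 12 tested MS4A genes (rows), for batch 1 bleomycin minus saline (circles) and batch 2 minus batch 1 bleomycin (squares), with filled symbols for adjusted p under 0.05. The members' circles lie between 1.00 (Ms4a4b) and 3.09 (Ms4a7), all squares are open, and Ms4a4d lies at -1.29.

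Levels of different members were compared per kilobase of exon. Over the summed exon length Ms4a6c led in each group, with 15.4 ± 4.99 CPM per kb in batch 1 bleomycin, 9.05 ± 1.67 in batch 2 bleomycin and 4.95 ± 1.18 in saline (SD, n = 4, 4 and 5). Ms4a4a (11.7 ± 7.14), Ms4a6d (10.9 ± 5.37), Ms4a6b (6.28 ± 1.69) and Ms4a7 (5.73 ± 0.889) followed in batch 1 bleomycin, and neighbours among these 5 members overlapped. Ms4a4c (2.48 ± 0.298) and Ms4a4b (1.5 ± 0.34) were lowest, with ranges of 2.05 to 2.68 and 1.26 to 2.0 CPM per kb that overlapped neither each other nor that of Ms4a7 (4.5 to 6.61). In saline Ms4a7 (0.676 ± 0.139) and Ms4a4b (0.743 ± 0.365) were the lowest and lay within their spread. The order rests on the exon length, and the longest coding transcript was also used (chosen after the data were seen). With it Ms4a7 moved to 16.2 ± 2.51 CPM per kb in batch 1 bleomycin, close to Ms4a6c at 17.2 ± 5.56. In batch 2 bleomycin it moved to 13.6 ± 2.49, above Ms4a6c at 10.1 ± 1.86, and in saline to 1.91 ± 0.393. Ms4a4b (2.78 ± 0.628, range 2.33 to 3.69) then lay above Ms4a4c (2.52 ± 0.303, range 2.08 to 2.73) in batch 1 bleomycin, with overlap.

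The make-up of the family differed between the groups. Ms4a7 gave 11.2% ± 2.47 of the members' summed CPM per kb in batch 1 bleomycin, 14.4% ± 3.48 in batch 2 bleomycin and 4.91% ± 1.4 in saline. Its share ranged from 8.71% to 13.9% in batch 1 bleomycin and from 3.01% to 6.36% in saline. Ms4a6d gave 19.3% ± 5.7 in batch 1 bleomycin, 19.9% ± 3.86 in batch 2 bleomycin and 10.1% ± 2.92 in saline, with overlap between batch 1 bleomycin (11.9% to 24.7%) and saline (6.42% to 13.2%). Ms4a6b went the other way, with 11.8% ± 0.938 in batch 1 bleomycin, 11.8% ± 2.75 in batch 2 bleomycin and 18.1% ± 1.77 in saline. The shares depend on the length used: over the longest coding transcript Ms4a7 gave 22.7% in batch 1 bleomycin, 28.0% in batch 2 bleomycin and 10.4% in saline. Shares sum to a fixed total, so a larger share of some members lowers that of the rest.

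Ratios to a gene of the mononuclear phagocyte lineage and to a gene of all leukocytes asked how the members moved relative to these genes. The pair does not stand for the cells' markers as a whole: the median change of the monocyte and interstitial macrophage list was 2.03, above those of Ms4a6c, Ms4a6b, Ms4a4c and Ms4a4b. Csf1r, the receptor for macrophage growth factor, rose by 0.88 (SE 0.14, adjusted p = 0.000254), and Ptprc, which encodes the leukocyte antigen CD45, rose by 1.20 (SE 0.11, adjusted p = 2.63e-06). The log2 ratio of Ms4a7 to Csf1r averaged -2.28 ± 0.10 in batch 1 bleomycin, -2.46 ± 0.37 in batch 2 bleomycin and -4.48 ± 0.34 in saline (SD, n = 4, 4 and 5). Batch 1 bleomycin exceeded saline by 2.19 for this ratio and by 1.84 for that of Ms4a7 to Ptprc, with no overlap in either (exact two-sided permutation p = 0.0159 each, the smallest that the 126 splits allow). For Ms4a6d the differences were 1.90 to Csf1r (exact permutation p = 0.0159) and 1.55 to Ptprc (exact permutation p = 0.0317). The ratio of Ms4a6d to Ptprc overlapped between the groups (-5.25 to -3.24 in batch 1 bleomycin, -6.26 to -4.69 in saline), and its exact permutation p was 0.0571 or 0.0714 with any of bleomycin replicates 6 to 8 or saline replicates 1, 2, 3 or 5 left out.

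In batch 2 bleomycin the ratios of Ms4a6c and Ms4a6b to Csf1r averaged -2.67 ± 0.08 and -2.74 ± 0.37, close to -2.77 ± 0.34 and -2.58 ± 0.15 in saline (SD, n = 4 and 5), while that of Ms4a6d was -3.34 ± 0.26 in batch 2 bleomycin against -4.78 ± 0.45 in saline. Batch and treatment both differ there, and no test was made.

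For the other members the ratio to Ptprc between batch 1 bleomycin and saline differed by 0.70 (Ms4a4a), 0.39 (Ms4a6c), 0.06 (Ms4a6b), 0.03 (Ms4a4c) and -0.09 (Ms4a4b), with exact permutation p from 0.222 to 0.825. To Csf1r, Ms4a6b differed by 0.41 (exact permutation p = 0.0159), Ms4a6c by 0.74 (0.0317), Ms4a4a by 1.06 (0.0635), Ms4a4c by 0.39 (0.238) and Ms4a4b by 0.26 (0.556). Of the 14 ratios, 6 had an exact permutation p under 0.05 and 0 passed once adjusted over the 14 ratios (Benjamini-Hochberg). The lowest adjusted p was 0.0556, shared by the 4 ratios at the smallest p. Without bleomycin replicate 8, Ms4a7 exceeded saline by 2.24 against Csf1r and by 1.72 against Ptprc (exact permutation p = 0.0357 each, the smallest possible there). In that setting Ms4a6d differed by 1.89 against Csf1r (exact permutation p = 0.0357) and 1.37 against Ptprc (exact permutation p = 0.0714), Ms4a6c by 0.78 against Csf1r (exact permutation p = 0.0714), and Ms4a4a by 0.31 against Ptprc (exact permutation p = 0.607).

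**Figure D3:**
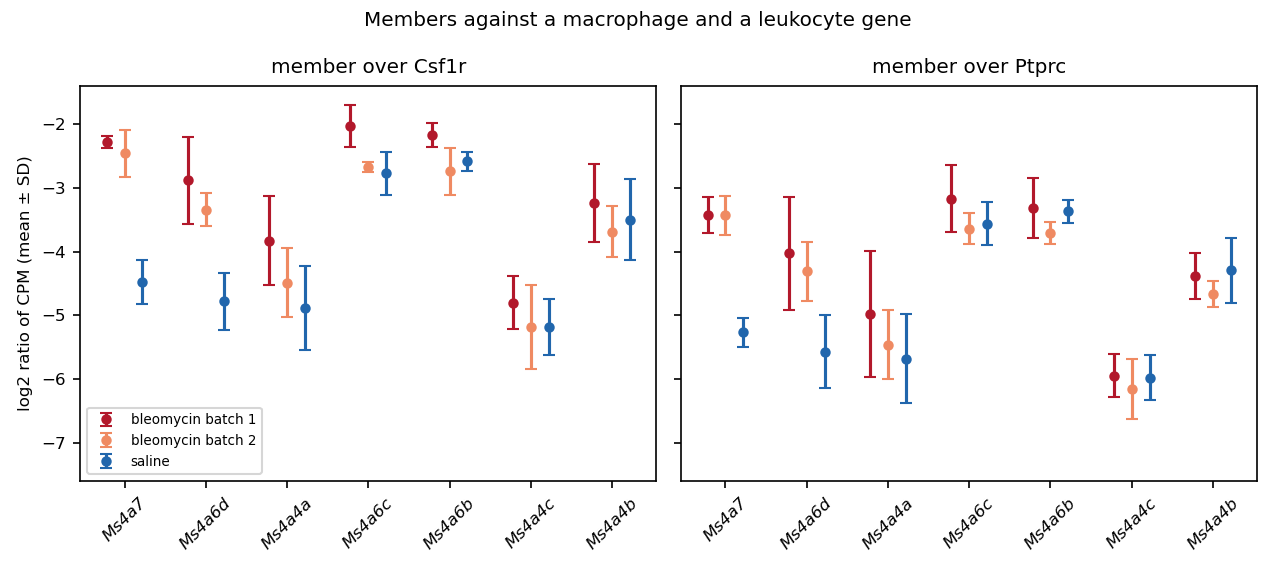
Log2 ratio of CPM (y axis, mean with SD) of each member to Csf1r (left) and to Ptprc (right) in batch 1 bleomycin, batch 2 bleomycin and saline (4, 4 and 5 libraries). Ms4a7 exceeds saline by 2.19 against Csf1r and 1.84 against Ptprc without overlap, Ms4a6d by 1.90 against Csf1r without overlap and by 1.55 against Ptprc with overlap, while Ms4a4b and Ms4a4c lie within the spread.

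Among the 8 bleomycin libraries the members did not vary as a block. After centring within batch, Pearson's r between members ran from -0.87 to 0.99 over 21 pairs (median 0.38, 13 above 0). These are descriptions over 8 libraries from both batches, prepared alike per the labels but differing in depth. Ms4a6c and Ms4a6d went together most closely (0.99), and Ms4a4b ran against both (-0.87 with Ms4a6c, -0.83 with Ms4a6d). Batch 1 bleomycin replicate 5 stood apart, with centred log2 levels of -1.31 for Ms4a6d, -0.75 for Ms4a6c and -0.55 for Ms4a6b beside 0.43 for Ms4a4b. Without it, and centred again, the median r over the 21 pairs was 0.04. Ms4a6c with Ms4a6d then stood at 0.98, Ms4a4b with Ms4a6c at -0.59 and Ms4a4b with Ms4a6d at -0.50, while Ms4a6b with Ms4a6c was 0.17 (0.74 with replicate 5). Leaving it out was chosen after the data were seen. In that library the 18 monocyte and interstitial macrophage genes summed to 1100 CPM, against 1980, 1740 and 2670 CPM in replicates 6 to 8. Apoe, a gene of that list, alone averaged 734 CPM in batch 1 bleomycin (438 to 1300 CPM). Csf1r, also on the list, had 90.4, 124, 132 and 157 CPM in replicates 5 to 8. The 15 T and natural killer cell genes summed to 74.3 CPM in replicate 5, against 97.5, 96.5 and 96.9 CPM in replicates 6 to 8. The part of either cell type in these levels was not tested.

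**Figure D4:**
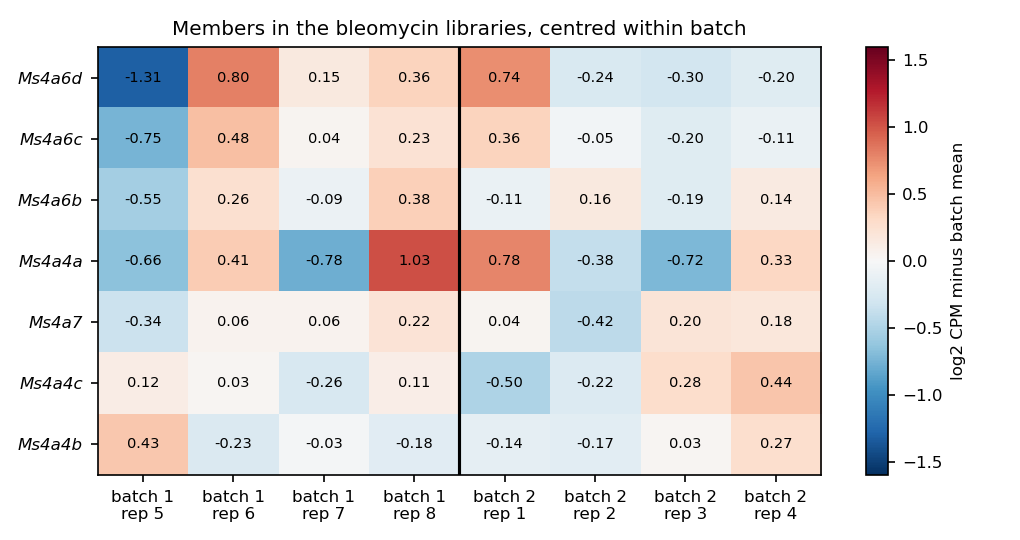
Log2 CPM minus the mean of the batch (colour and printed value) for the 7 members (rows) in the bleomycin libraries of batch 1 and batch 2 (columns). Replicate 5 is low for Ms4a6d (-1.31), Ms4a6c (-0.75) and Ms4a4a (-0.66) and high for Ms4a4b (0.43), and replicate 8 is highest for Ms4a4a (1.03).

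Genes whose levels followed a member most closely over these 8 libraries, among 11962 candidates with a mean of at least 5 CPM, were these. For Ms4a7 they were Eif2ak4, Zfp128 and Csnk1d (r 0.96 to 0.97), for Ms4a6d Dse, Lig3 and Peg10 (0.99 to 1.00), for Ms4a6c Igfbp4, Rpl12 and Lig3 (0.99 to 1.00) and for Ms4a6b Nxn, Castor2 and Ccdc122 (0.97 to 0.98). Those of Ms4a4a were Tpm3, Kctd15 and Supv3l1 (0.97 to 0.99), of Ms4a4b Arhgef15, Flt3l and Dnhd1 (0.97 each), and of Ms4a4c Rtkn, Galnt18 and Fbxo7 (0.98 to 0.99). With 8 libraries and so many candidates, values this high say little of any gene by itself. Of these genes Igfbp4 changed most between batch 1 bleomycin and saline (log2 change 1.22, SE 0.26, adjusted p = 0.004).

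The rest of the MS4A family did not move as a whole. Of 14 other family genes in the table, 5 were tested, of which 2 rose, 1 fell and 2 did not pass (2 rose and 2 fell without bleomycin replicate 8). Ms4a14 had 13.1, 7.15, 12 and 13 CPM in batch 1 bleomycin, 8.3, 8.77, 8.11 and 9.96 CPM in batch 2 bleomycin and 2.47, 0.696, 1.31, 3.65 and 2.79 CPM in saline (log2 change 2.35, SE 0.33, adjusted p = 8.27e-05). Ms4a1, which encodes CD20, averaged 14.6 ± 4.94 CPM in batch 1 bleomycin, 12.6 ± 3.76 CPM in batch 2 bleomycin and 5.82 ± 1.74 CPM in saline (log2 change 1.31, SE 0.27, adjusted p = 0.00176). Both were higher in every bleomycin library than in any saline library.

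Ms4a4d, named for its likeness to Ms4a4b and Ms4a4c, fell. It had 7.13, 5.94, 7.36 and 7.6 CPM in batch 1 bleomycin, 5.98, 8.37, 9.55 and 5.57 CPM in batch 2 bleomycin and 16.2, 15.8, 20.0, 18 and 15.7 CPM in saline (log2 change -1.29, SE 0.18, adjusted p = 6.48e-05). All bleomycin libraries were below all saline libraries. In RefSeq's gene order on GRCm38.p6 it lies between Ms4a6b and Ms4a6d, so a gene that fell sits between members that rose. Ms4a8a (log2 change 0.55, SE 0.26, adjusted p = 0.124) and Ms4a20 (-0.81, SE 1.13, adjusted p = 0.63) did not pass. Ms4a20 had 0.0412, 0.104, 0.0394 and 2.44 CPM in batch 1 bleomycin replicates 5 to 8 and 0.147 to 4.06 CPM in saline. Its estimate thus depends on replicate 8, the library whose title reads control.

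The family genes below the filter include those of other blood cells. Ms4a2, the beta chain of the mast cell IgE receptor, averaged 0.101 ± 0.0764 CPM in batch 1 bleomycin, 0.231 ± 0.285 CPM in batch 2 bleomycin and 0.388 ± 0.227 CPM in saline, and Ms4a3, a gene of myeloid progenitors, was seen in a lone library at 0.293 CPM. Ms4a10 and Ms4a15 reached at most 0.204 and 0.464 CPM. Ms4a5, Ms4a12, Ms4a13, Ms4a18 and Ms4a19 had no count in any of the 13 libraries.

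Receptors and adaptors that MS4A proteins have been linked to rose throughout, 8 of 8 tested with a median log2 change of 1.6. Trem2, a lipid-sensing receptor of macrophages, had 14.6 ± 5.67 CPM in batch 1 bleomycin, 16.9 ± 5.15 CPM in batch 2 bleomycin and 1.6 ± 1.31 CPM in saline (log2 change 3.19, SE 0.45, adjusted p = 0.00017). Clec7a, which encodes dectin-1, rose by 2.06 (SE 0.23, adjusted p = 3.28e-05), with 84.7 ± 22.3 CPM in batch 1 bleomycin and 20.4 ± 3.67 CPM in saline. The signalling genes of this list rose too, the adaptors Tyrobp by 1.28 (SE 0.24) and Fcer1g by 1.57 (SE 0.20) and the kinase Syk by 1.62 (SE 0.14). Tnfrsf18, which encodes GITR, rose by 1.76 (SE 0.37), and the MS4A-like genes Tmem176a and Tmem176b by 0.85 (SE 0.12) and 0.95 (SE 0.11).

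Markers of the cells that could hold these transcripts moved as well. Of 18 monocyte and interstitial macrophage genes 15 rose and 0 fell (median log2 change 2.03), and their summed level was 1100 to 2670 CPM in batch 1 bleomycin, 1760 to 2450 CPM in batch 2 bleomycin and 561 to 694 CPM in saline. Each of these genes had counts in some library. Apoe, a lipid carrier, rose by 2.32 (SE 0.24) and the mannose receptor Mrc1 by 1.22 (SE 0.26). Apoe alone averaged 734 CPM in batch 1 bleomycin, 1050 CPM in batch 2 bleomycin and 147 CPM in saline, a large part of the summed level. Lyve1, also a lymphatic gene, was at 122 ± 33.0 CPM in batch 1 bleomycin and 168 ± 35.4 CPM in saline (adjusted p = 0.18). Of 13 resident alveolar macrophage genes 3 rose and 4 fell (median -0.28). Mrc1, which is on both lists, Itgax and Atp6v0d2 rose, while Car4, Ear1, Fabp1 and Krt79 fell. The sums of this list were 352 to 599 CPM in batch 1 bleomycin, 411 to 751 CPM in batch 2 bleomycin and 314 to 427 CPM in saline. Mrc1 alone averaged 213 CPM in batch 1 bleomycin and 91.5 CPM in saline, and Itgax 84.4 and 21.6 CPM.

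The dendritic cell list had 8 of 10 higher and 0 lower (median 1.68), the pan-leukocyte list 5 of 5 higher (1.46) and the B and plasma cell list 7 of 8 higher and 0 lower (1.43). Their sums ran over 1230 to 2240, 482 to 662 and 270 to 368 CPM in batch 1 bleomycin, and over 509 to 636, 198 to 264 and 116 to 169 CPM in saline. Single genes made up much of these sums. In the dendritic cell list Cd74 alone averaged 826 CPM in batch 1 bleomycin and 298 CPM in saline. In the B and plasma cell list Sdc1 alone averaged 157 CPM in batch 1 bleomycin and 115 CPM in saline. Among 15 T and natural killer cell genes 6 rose and 1 fell (median 0.80). The sums of that list were 74.3 to 97.5 CPM in batch 1 bleomycin, 71.4 to 107 CPM in batch 2 bleomycin and 32.9 to 69.2 CPM in saline. Cd4, the T helper coreceptor that some macrophages also carry, rose by 1.93 (SE 0.22), the T cell receptor chain gene Cd3e by 0.86 (SE 0.27), and the T cell kinase gene Lck was at 8.58 ± 1.55 CPM in batch 1 bleomycin and 5.06 ± 2.69 CPM in saline (adjusted p = 0.0784). In saline replicates 1 to 5 the sums were 59.0, 69.2, 40.4, 32.9 and 36.6 CPM, beside Ms4a4b levels of 7.71, 4.17, 11.3, 3.27 and 6.1 CPM.

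Of 6 tested neutrophil genes 2 rose (median 0.63). The 5 tested mast cell and basophil genes had a median of 0.02, and -0.80 without bleomycin replicate 8. Interferon-induced genes rose in 12 of 15 cases (median 1.04). The lung epithelium and endothelium list fell in 7 of 9 genes (median -0.64). Background for these counts is the 17.5% of tested genes that rose and the 13.4% that fell. Without bleomycin replicate 8, 14 of 18 monocyte and interstitial macrophage genes, 5 of 8 B and plasma cell genes, 10 of 15 interferon-induced genes, 1 of 6 neutrophil genes and 8 of 8 receptors and adaptors rose. The part of cell numbers in the members' changes was not tested.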

How the data were processed

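Lung RNA (8 ng from a 10 µm section) was prepared with a stranded total RNA kit, per the labels. Per the submitters' processing notes, tools named were cutadapt 4.4, STAR 2.7.10b, featureCounts 2.0.3 and DESeq2 1.42.1, with build mm39. The authors deposited whole-number counts per gene symbol, used here as they stand. Not given in the sources used here were the annotation, the strand setting and the handling of reads with several matches. A deposited normalized table was not used. Of the counts from 1 to 10, 78.4% to 86.1% were even, so low counts moved mostly in steps of 2 and their counting error is larger than their size implies.

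Genes passing edgeR's expression filter (minimum count 10) were fitted in all 13 libraries with 3 groups (edgeR 4.0.16 in R 4.3.3, TMM, quasi-likelihood test, Benjamini-Hochberg threshold 0.05). Ratios used log2 CPM (prior count 2) and exact two-sided permutation tests (scipy 1.17.1). Lengths and transcripts came from a mouse annotation of an earlier build than mm39, promoters and gene order from RefSeq. DESeq2 1.42.0, limma-voom (limma 3.58.1), other scalings, a replicate block and leaving out each library were alternatives. The fits were tested on simulated data. For batch 1 bleomycin against saline edgeR recovered 14.9% of 1.5-fold, 56.7% of 2-fold and 75.8% of 4-fold changes. Between bleomycin batches it recovered 8.96%, 37.3% and 69.7%. Precision is limited by counting error, with 16 to 378 counts per member in saline, and by variation between libraries. Beyond counting error, edgeR's common coefficient of variation between libraries was 0.306.

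Members and lists were chosen with earlier results of these data known. Named genes were all members, other MS4A genes, receptors and adaptors, the 3 most abundant tested genes of each marker list, Csf1r, Ptprc and the 3 genes most like each member. BE692007 was added after its overlap was seen. Counts of the marker lists without bleomycin replicate 8, and the other tools with it in saline, were also added after the data were seen. Same-numbered batch 2 bleomycin and saline libraries deviated with correlations of -0.35 to -0.06, so numbers were not taken as pairs.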

Additional observations from a re-analysis of the deposited data

Results flagged for a closer look

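Among the 21 sets of a member in a group, 1 held a library far from the others: bleomycin batch 2 replicate 1 had 19.3 CPM of Ms4a6d, against 9.3 to 9.96 CPM in the other 3 libraries of that group. The gap took 0.934 of the range, above the critical value of 0.829 for 4 libraries. Chance gives about 5% of such sets. In that library the monocyte and interstitial macrophage genes summed to 2450 CPM and the resident alveolar macrophage genes to 751 CPM. These were the highest sums of batch 2 bleomycin, and Mrc1 counts in both. Apoe alone, in the former list, averaged 1050 CPM in batch 2 bleomycin. The part of either cell type in the Ms4a6d level was not tested.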

How the results depend on the processing

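Members called between batch 1 bleomycin and saline stayed at 7 with each library left out. With bleomycin replicate 8 put in saline the count was 0, and 645 of all genes were called in place of 6319. The replicate block called 5 by edgeR, and Ms4a4b (0.78, adjusted p = 0.112) and Ms4a4c (0.94, adjusted p = 0.093) were lost. Its treatment term rests on numbers found in both treatments, which are 1 to 4 (batch 2 bleomycin) and 5 (batch 1 bleomycin). It thus sets mostly batch 2 bleomycin against saline, where batch and treatment both differ. The numbers do not pair the libraries, so it is no check of the comparison within batch 1. Between bleomycin batches, members called were 1 with no filter on low counts, 1 with DESeq2 and 0 to 2 with a library left out, against 0 as reported. All genes called there were 343, against 737 with DESeq2, 106 with limma-voom and 148 to 1093 with a library left out. Ratios with an exact permutation p under 0.05 numbered 6, 2 with replicate 8 in saline, and 4 to 6 with a library left out. With replicate 8 in saline the Ptprc ratio differences of Ms4a4a, Ms4a4c and Ms4a6b turned to -0.01, -0.10 and -0.22. With a library left out they ran from 0.31 (without bleomycin replicate 8) to 1.04 for Ms4a4a, -0.11 to 0.2 for Ms4a4c, -0.12 to 0.21 for Ms4a6b and -0.26 to 0.08 for Ms4a4b, and the Csf1r ratio of Ms4a4b from -0.03 to 0.48. The cause was not tested. Depth limits the members with few saline counts, such as Ms4a4c (from 16) and Ms4a6d (from 18).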
